A study of Mus musculus with 9 samples.

Results

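The genes of the proteasome were examined in RNA sequencing counts from punches of the paraventricular nucleus (PVN) of the hypothalamus. Members were all genes whose symbol is Psma, Psmb, Psmc, Psmd, Psme, Psmf or Psmg followed by a number, with a mean of at least 10 counts over the 9 samples. Of 27179 genes in the count table, 48 have such a symbol and 47 are members. All 47 were among the 17344 genes that passed the filter on low counts and were tested. The gene left out, Psmb11, a thymus-specific subunit, had a mean of 4.22 counts and from 0 to 10 counts per sample, while the least counted member, Psma8, a subunit best known from testis, had a mean of 27.4 counts and from 8 to 73 per sample.

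All animals were wild type male mice, C57BL/6 by the labels and C57BL/6J by the study's methods, with 3 independent mice in each group and no other allele or agent shared by the groups. Control mice received chow with 16% of calories from fat, HFD mice received a diet with 60% of calories from fat for 12 weeks from 5 weeks of age, and HFD+Mino mice received that diet with minocycline, a tetracycline antibiotic that dampens microglial activation, at 40 mg/kg per day in the last 6 weeks. The labels give an age of postnatal day 35 for every sample, which is the age at the start of the diet. Minocycline was given only on the high-fat diet, so its effect on chow was not measured.

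The proteasome is the barrel-shaped protease that degrades most ubiquitin-tagged proteins in the cytosol and nucleus. Its core particle is a stack of outer rings of alpha subunits and inner rings of beta subunits, and the beta subunits Psmb5, Psmb6 and Psmb7 carry the proteolytic sites, which Psmb8, Psmb9 and Psmb10 replace in the immunoproteasome made by immune and cytokine-treated cells. The regulatory cap, with a base of ATPases (Psmc genes) and a lid (most Psmd genes), recognises, unfolds and threads in the substrate. Dedicated chaperones (Psmg1 to Psmg4 for the core, and Psmd5, Psmd9 and Psmd10 for the cap) assist assembly and leave the finished particle. Neurons depend on this machinery for protein turnover at synapses, and when proteasome activity falls the transcription factor encoded by Nfe2l1 raises most of these genes together.

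Total counts ranged from 17728590 to 42326213 per sample, and the members took from 0.690% to 1.35% of them. Mitochondrial genes made up 1.21% to 6.21% of all counts, and Rn45s, the ribosomal RNA precursor, took from 0.350% to 0.430% in the HFD samples against 0.0266% to 0.113% in the other 6. The labelled tissue was checked against 6 genes of PVN neurons (Avp, Oxt, Crh, Trh, Sim1 and Otp). Their summed level was 27.8, 932 and 2563 counts scaled to library size (CPM) in Control replicates 1, 2 and 3, from 2479 to 3726 CPM in the HFD samples, and 37726, 31917 and 3104 CPM in HFD+Mino replicates 1, 2 and 3. Control replicate 1 had 0 CPM of Otp, and its summed level of 6 oligodendrocyte genes was 29217 CPM against 2221 to 6886 CPM in the other 8 samples. This library stands apart from its label, and HFD+Mino replicates 1 and 2 stand apart in the opposite direction by the sum alone. Of the 6 PVN neuron genes, 4 were higher and 2 lower in HFD+Mino than in HFD. They ran from 3.66 for Avp to -1.10 for Otp on the log2 scale. Relative to the Control mean, their median was 2.58 and 3.33 in HFD+Mino replicates 1 and 2, against 2.33 in HFD replicate 1. Results that rest on Control replicate 1 or on HFD+Mino libraries are also given leaving out each in turn and, for HFD+Mino, replicates 1 and 2 together.

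Per kilobase of exon, the 47 members spanned a wide range of levels. In the Control group Psmc5, an ATPase of the cap base, had the highest level at 425 ± 116 RPKM (read counts per kilobase of exon, scaled to library size as in CPM; SD, n = 3), followed by the alpha subunit Psma6 at 233 ± 58.3 RPKM and the beta subunit Psmb2 at 217 ± 65.4 RPKM. Psmc1 at 217 ± 37.5 RPKM, Psmb6 at 216 ± 43.8 RPKM and Psmb5 at 195 ± 42.4 RPKM came next, and the levels of these 5 subunits below Psmc5 lay within each other's spread. At the other end were Psma8 at 0.203 RPKM, the immunoproteasome subunits Psmb9 at 1.07 RPKM and Psmb8 at 3.28 RPKM, and Psme4, a nuclear activator, at 1.69 RPKM. Psmc5 held rank 1 in all 3 groups. The ranks that moved most were those of the scaffold subunits Psmd2, at 14, 8 and 28 in Control, HFD and HFD+Mino, and Psmd1, at 29, 25 and 36, and of the activator Psme3, at 22, 21 and 32.

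Across the samples most members moved as a block. Relative to the Control mean, the median member stood at 0.27, 0.09 and -0.36 on the log2 scale in Control replicates 1, 2 and 3, at -0.35, -0.30 and -0.36 in the HFD replicates, and at 0.91, 0.97 and 0.09 in HFD+Mino replicates 1, 2 and 3. The median of all genes tested stayed between -0.03 and 0.02 in every sample. The 3 HFD mice were thus close together and low, Control replicate 3 lay with them, and HFD+Mino replicates 1 and 2 were high while replicate 3 lay among the Control samples. Of the 47 members, 38 were higher in HFD+Mino replicates 1 and 2 than in every Control sample, but HFD+Mino replicate 3 lay within the Control range for 40 and was the lowest of its group for 43. Control replicates 1 and 2 were above every HFD sample for 37 members, and Control replicate 3 for 16. The median coefficient of variation between mice was 20.9% for the Control group, 5.42% for HFD and 34.2% for HFD+Mino.

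**Figure D1:**
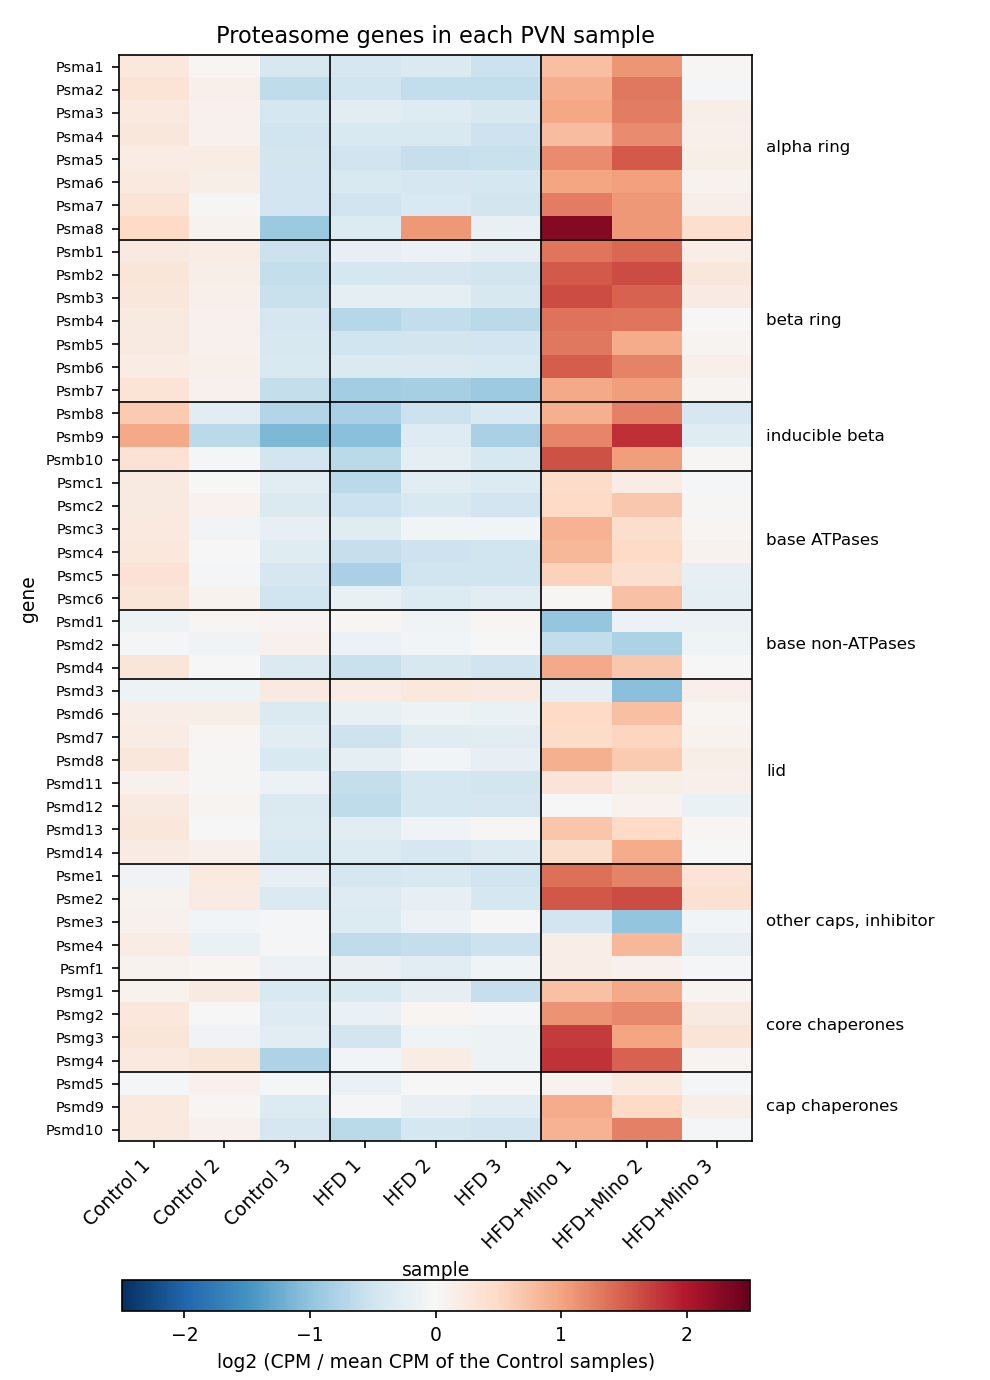
Heat map of the 47 members (rows, by role) in the 9 samples (columns), coloured by log2 of CPM over the mean of the Control samples. The HFD columns are mostly low, with medians from -0.36 to -0.30, Control replicate 3 is like them with a median of -0.36, and HFD+Mino replicates 1 and 2 are high with medians of 0.91 and 0.97.

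The libraries with the highest member levels, HFD+Mino replicates 1 and 2, also had the highest summed level of PVN neuron markers. Control replicate 1, whose summed level of these markers was the lowest, had the next highest member levels. The part of neuronal content in the member levels was not tested, and in punches of tissue fewer cells of a type and less RNA per cell cannot be told apart. By summed level, pan-neuronal genes were, like the members, lowest in replicate 3 within Control and within HFD+Mino, but not higher in HFD+Mino than in Control. By their median relative to the Control mean, HFD+Mino replicate 2 was lowest of its group at -0.25, against -0.13 in replicates 1 and 3. In HFD+Mino against HFD, 4 of the 6 pan-neuronal genes were higher and 2 lower, from -1.44 for Syt1 to 0.75 for Stmn2. In replicates 1, 2 and 3 they summed to 6999, 5382 and 4293 CPM in Control, 3191, 4619 and 5139 CPM in HFD, and 4908, 4608 and 3855 CPM in HFD+Mino. Astrocyte genes ran from 1912 to 2049 CPM, from 2484 to 2700 CPM and from 1483 to 1808 CPM in the same order. Microglial genes ran from 160.0 to 216 CPM, from 226 to 240 CPM and from 177 to 223 CPM, but singly they went both ways. In HFD against Control 4 microglial genes were higher and 2 lower, from -0.49 for Aif1 to 0.73 for Cx3cr1. In HFD+Mino against HFD 2 were higher and 4 lower, from -0.97 for Csf1r to 1.36 for Aif1. Endothelial genes summed to 158 to 313 CPM, 147 to 183 CPM and 159 to 415 CPM, ependymal genes to 17.8 to 158 CPM, 179 to 325 CPM and 353 to 757 CPM, and choroid plexus genes to 10.0 to 10.7 CPM, 12.7 to 38.8 CPM and 12.9 to 26.6 CPM.

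The effect of the diet on the proteasome is addressed by HFD against Control. Most members were lower in HFD by amounts that did not pass the test: 43 of 47 had a negative log2 difference, with a median of -0.39 against 0.00 for all genes, and the range ran from -0.87 for Psmb7 to 0.34 for Psma8. A call required a false discovery rate (FDR) under 0.01 over all genes tested and at least a 1.5-fold difference in edgeR's quasi-likelihood test. By this rule 0 members were lower and 0 higher, where 1.42% and 0.317% of all genes were called. Unadjusted p-values fell under 0.05 for 5 members, all lower in HFD, against 9.22% of all genes (Psmb7, Psmc4, Psmc5, Psmd11 and Psmd12), and no member reached an FDR under 0.05. All 3 HFD samples were below all 3 Control samples for 14 members, against 16% of all genes. Without Control replicate 1 the median was -0.26, and without Control replicate 3 it was -0.53, with 0 calls in either case.

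Whether minocycline moved these genes on the high-fat diet is addressed by HFD+Mino against HFD, and here the members were higher. The median log2 difference was 1.08 against 0.01 for all genes, 43 of 47 members were positive, and the range ran from -0.53 for Psmd3 to 1.84 for Psmb9. The beta subunits Psmb4 and Psmb7 and the activator subunits Psme1 and Psme2 rose, 4 of 47, where 1.98% of all genes rose by the same rule, and 0 members fell, where 2.16% of all genes fell. At an FDR under 0.05, 33 members were higher, against 14.6% of all genes. All 3 HFD+Mino samples were above all 3 HFD samples for 38 members against 23.3% of all genes, and below them for 2, Psmd1 and Psmd3, against 23.5%. This comparison and HFD against Control share the HFD samples and are not independent of each other.

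Each of the 4 calls was lost on leaving out any of 6 of the 9 libraries. Without HFD+Mino replicate 3, the mouse nearest to Control, 31 members rose against 11.6% of all genes, and the median was 1.30. Without HFD+Mino replicates 1 and 2 together, which leaves 1 HFD+Mino mouse that is assumed to vary like the other groups, 0 members rose against 1.01% of all genes, and the median was 0.45. Without Control replicate 1 or Control replicate 3 there were 6 calls, the 4 above with Psma5 and Psmb2, and without any other single library there were 0, with a median between 0.91 and 1.12, including 0.91 without either HFD+Mino replicate 1 or replicate 2. Same-numbered Control and HFD+Mino mice deviated together in these counts, but no label names pairs, so a pairing is inferred from the same data. With that pairing in the model 34 members rose against 12.9% of all genes. Among them were 14 of the 15 constitutive core subunits, 11 of 17 cap subunits and 6 of 7 assembly chaperones. That model also removes shared spread from comparisons with HFD, whose samples were given no partner in it.

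**Figure D2:**
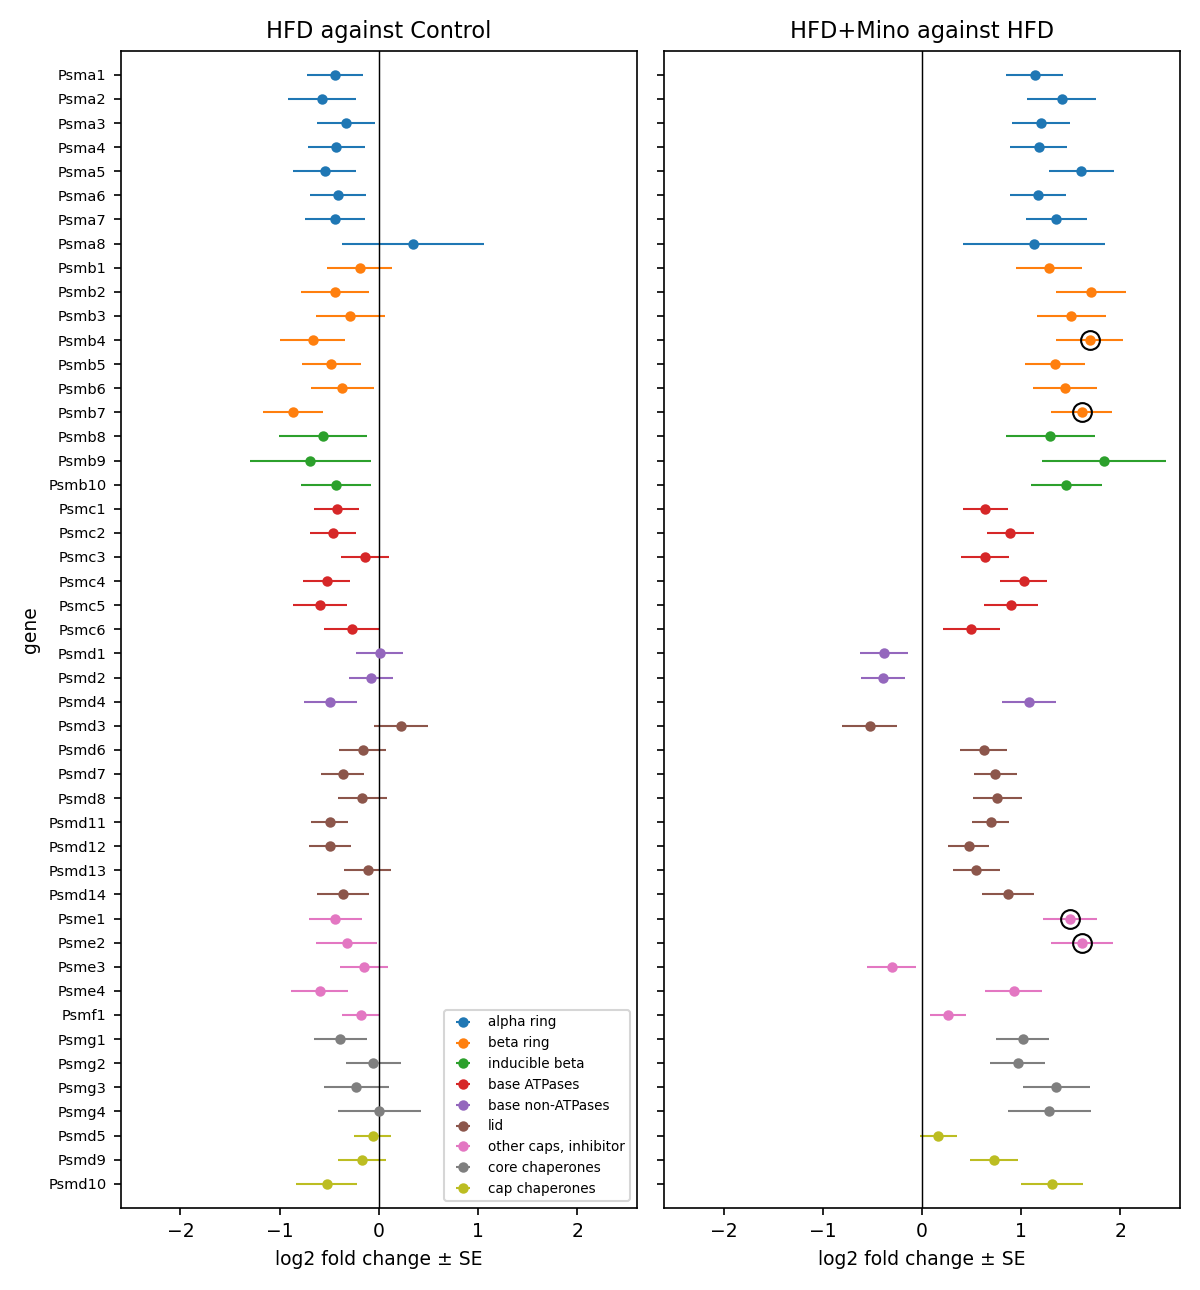
Log2 difference with its SE for each of the 47 members, grouped by role, for HFD against Control and for HFD+Mino against HFD, with called members circled. The first panel lies mostly left of 0 with a median of -0.39 and has 0 called members, and the second lies mostly right of 0 with a median of 1.08 and has 4.

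In the 3-way test, which asks whether the groups differ, with HFD lowest or highest and a distance of 1.5-fold or more to the overall mean, 0 members were lower against 1.21% of all genes, and 0 were higher against 0.917%. At an FDR under 0.05 with the same fold, 13 members were lower against 6.65% of all genes. With HFD below the overall mean, whether or not it was the lowest group, 35 members had an unadjusted p under 0.05 in this test, against 20.8% of all genes. All 3 HFD samples were below all 6 others for 14 members against 9.62% of all genes, and above all others for 0 against 13.4%. These 14 comprised 4 core subunits (Psma5, Psmb4, Psmb5 and Psmb7), 7 cap subunits (Psmc1, Psmc2, Psmc4, Psmc5, Psmd4, Psmd11 and Psmd12), the activators Psme1 and Psme4, and the chaperone Psmd10. Near copies elsewhere in the genome cover 74.3% of the longest Psma5 transcript, so its count is uncertain. Without HFD+Mino replicate 3, 20 members were called lower in HFD against 7.22% of all genes, and with the pairing of Control and HFD+Mino in the model 7 were called against 5.4%, namely Psma2, Psma5, Psmb2, Psmb4, Psmb7, Psme1 and Psme2. Without HFD+Mino replicate 1, replicate 2 or both, 0 were called.

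HFD+Mino against Control called 0 members higher and 0 lower, where 0% of all genes were called in either direction. The median log2 difference was 0.70 against -0.02 for all genes, from -0.47 for Psmd2 to 1.47 for Psma8, and 25 members were higher with an unadjusted p under 0.05 against 12.7% of all genes. With the pairing in the model 8 members were called higher against 2.68% of all genes (Psma5, Psma7, Psmb1, Psmb2, Psmb3, Psmb6, Psme2 and Psmg4), and without HFD+Mino replicate 3 there were 15 against 4.03%. Leaving out Control replicate 1 moved the median to 0.85 with 0 calls. Leaving out HFD+Mino replicate 1, replicate 2 or both gave medians of 0.57, 0.51 and 0.080, also with 0 calls. In HFD against Control the pairing called 1 member lower, Psmb7, against 2.87% of all genes.

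The alpha genes of the outer rings were higher in HFD+Mino than in HFD without passing the test. The alpha subunits Psma1 to Psma7 differed by 1.14 to 1.61 on the log2 scale between HFD+Mino and HFD, with an FDR under 0.05 for 7 of 8 alpha genes and 0 called. Psma2, the alpha subunit with the lowest value in HFD against Control, had 477, 413 and 243 CPM in the Control mice, 268, 247 and 246 CPM in the HFD mice and 713, 944 and 365 CPM in the HFD+Mino mice. All 3 HFD+Mino mice were above the HFD mice, while Control replicate 3 lay below them. The log2 difference was -0.57 ± 0.34 (SE; FDR = 0.370) for HFD against Control and 1.41 ± 0.35 (FDR = 0.0164) for HFD+Mino against HFD. Psma8, which replaces Psma7 in germ cells, was the member farthest up in HFD against Control at 0.34 ± 0.72 (FDR = 0.828), but its level was from 0.265 to 2.5 CPM and the SE exceeded the difference.

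The beta ring had the largest differences among the constitutive parts, with a median of 1.51 between HFD+Mino and HFD and an FDR under 0.05 for 7 of 7 subunits. Psmb4, a non-catalytic beta subunit (chr3:94884324-94886958, minus strand, GRCm38.p6), had 276, 254 and 177 CPM in Control, 145, 153 and 148 CPM in HFD, and 608, 596 and 235 CPM in HFD+Mino. The HFD mice were below all 6 others, and HFD+Mino replicate 3 lay inside the Control range. Psmb4 rose by 1.69 ± 0.34 (FDR = 0.00954) in HFD+Mino against HFD and differed by -0.67 ± 0.33 (FDR = 0.283) in HFD against Control. Psmb1, the beta subunit with the smallest value in HFD against Control at -0.19 ± 0.32 (FDR = 0.774), had 416, 402 and 244 CPM in Control, 307, 320 and 302 CPM in HFD, and 898, 961 and 398 CPM in HFD+Mino. Its difference in HFD+Mino against HFD was 1.28 ± 0.33 (FDR = 0.0190).

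The 3 catalytic subunits of the constitutive core had negative differences in HFD against Control and positive ones in HFD+Mino against HFD, and Psmb7 passed the test in the latter. Psmb7, the trypsin-like site (chr2:38588046-38643952, minus strand), had 237, 202 and 123 CPM in Control, 103, 105 and 100.3 CPM in HFD, and 359.9, 384 and 197 CPM in HFD+Mino. The HFD mice were below all 6 others. Its log2 difference was -0.87 ± 0.30 (FDR = 0.128) in HFD against Control, the lowest among the members, and it rose by 1.61 ± 0.30 (FDR = 0.00846) in HFD+Mino against HFD. Psmb7 shares 405 exonic nucleotides with Nek6 on the other strand, and reads there cannot be assigned by position alone.

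Psmb5, the chymotrypsin-like site (chr14:54614120-54617995, minus strand), had 204, 189.9 and 132 CPM in Control, 124, 128 and 126 CPM in HFD, and 439, 335 and 185 CPM in HFD+Mino. The HFD mice lay close together and below all 6 others. The log2 difference was -0.48 ± 0.30 (FDR = 0.395) in HFD against Control and 1.34 ± 0.30 (FDR = 0.0131) in HFD+Mino against HFD, short of the threshold. Near copies elsewhere in the genome cover 88.4% of its longest transcript, so its count is uncertain. Psmb6, the caspase-like site (chr11:70525324-70527858, plus strand), had 462, 442 and 311 CPM in Control, 313, 317 and 310.5 CPM in HFD, and 1159.6, 961 and 442 CPM in HFD+Mino. Control replicate 3 lay inside the HFD range for this gene, with differences of -0.37 ± 0.32 (FDR = 0.548) and 1.45 ± 0.32 (FDR = 0.0130).

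**Figure D3:**
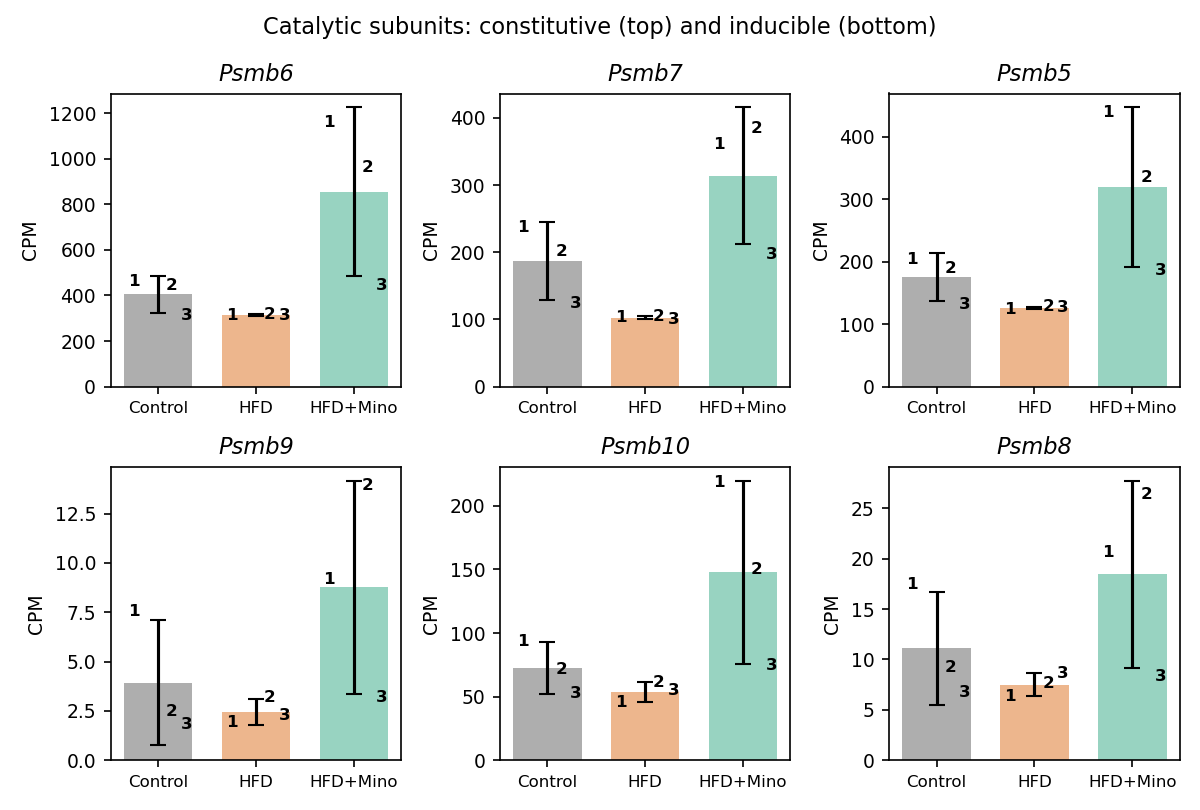
CPM of the constitutive catalytic subunits Psmb6, Psmb7 and Psmb5 and, under each, the inducible subunit that replaces it, by group. Bars are means of 3 mice, error bars are SDs, and digits stand at the value of each replicate. The HFD mice of Psmb7 lie from 100.3 to 105 CPM, below the lowest Control mouse at 123 CPM, while for the inducible subunits the HFD mice overlap the Control mice.

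The promoter of Psmb5 is shown because it holds the letters of the antioxidant response element, the element that the Nfe2l1 product binds in proteasome promoters. The 150 bases before the annotated start are given 5′ to 3′ on the gene's strand, from the RefSeq promoter table of GRCm38.p6, with the match in capitals.
Psmb5, chr14:54617996-54618145: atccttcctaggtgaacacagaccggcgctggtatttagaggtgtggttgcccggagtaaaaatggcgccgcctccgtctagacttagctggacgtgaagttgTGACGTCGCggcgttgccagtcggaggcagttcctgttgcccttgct
The match begins 47 bases before the start. Windows of 300 bases, 250 before and 50 after the start, were at hand for 39 of 47 members. The motif TGACNNNGC, searched on both strands, was in 6 of them (15.4%: Psmb5, Psmb6, Psmc6, Psmd9, Psmd12 and Psme4) against 16.6% of the windows of genes tested and 12.4% of all windows. The letters CCAAT were in 33.3% of member windows against 42.2% of those of genes tested. GAAANNGAA, the core of the interferon-stimulated response element, was in 17.9% (7 members: Psmb3, Psmb4, Psmc2, Psmd4, Psmd9, Psme1 and Psmg4) against 8.57%. A match describes letters only.

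The immunoproteasome subunits Psmb8 and Psmb9 had low levels, and a wide spread within the Control and HFD+Mino groups. Psmb8 had 17.4, 9.23 and 6.68 CPM in Control, 6.32, 7.63 and 8.56 CPM in HFD, and 20.6, 26.4 and 8.28 CPM in HFD+Mino. Its difference was -0.56 ± 0.44 (FDR = 0.508) in HFD against Control and 1.29 ± 0.45 (FDR = 0.0522) in HFD+Mino against HFD. Psmb9 had 7.55, 2.46 and 1.80 CPM, then 1.91, 3.16 and 2.24 CPM, then 9.17, 13.9 and 3.17 CPM, and the corresponding differences were -0.69 ± 0.61 (FDR = 0.560) and 1.84 ± 0.62 (FDR = 0.0486). For Psmb8 and Psmb9 the high Control value was that of replicate 1 alone, and HFD+Mino replicate 3 was at the level of the HFD mice.

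Psmb10, the best expressed of the inducible subunits, had 93.3, 71.5 and 52.7 CPM in Control, 45.3, 61.0 and 55.1 CPM in HFD, and 218, 150.2 and 74.4 CPM in HFD+Mino, with differences of -0.43 ± 0.35 (FDR = 0.527) and 1.45 ± 0.36 (FDR = 0.0167). Relative to the constitutive subunit each replaces, the inducible subunits showed no ordered shift. Psmb8 was from 4.86% to 8.51% of Psmb5 in CPM in Control, from 5.09% to 6.79% in HFD and from 4.47% to 7.89% in HFD+Mino. Psmb10 was from 35.5% to 42.8% of Psmb7 in Control, from 44.0% to 58.0% in HFD and from 37.8% to 60.6% in HFD+Mino, so the HFD mice were above the Control mice in this ratio but inside the HFD+Mino range. Psmb8 shares 498 exonic nucleotides with Gm20496 and Psmb9 shares 212 with Tap1, which further limits these low counts.

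In the regulatory cap the differences in HFD+Mino against HFD were smaller than in the core, and the subunits did not all follow it. The medians there were 0.64 for the cap and 1.36 for the core, while in HFD against Control they were -0.36 and -0.44. The 6 base ATPases had a median of -0.45 in HFD against Control and 0.77 in HFD+Mino against HFD, with 3 of 6 at an FDR under 0.05 and 0 called. Psmc5, the most abundant member per kilobase, had 762, 572 and 442 CPM in Control, 336, 420.1 and 419 CPM in HFD, and 888, 782 and 515 CPM in HFD+Mino. The HFD mice were the lowest of all 9, with differences of -0.60 ± 0.27 (FDR = 0.242) and 0.89 ± 0.27 (FDR = 0.0333). Psmc3, the ATPase that differed least in HFD against Control, had 314, 251 and 229.5 CPM, then 216, 252 and 252 CPM, then 482, 358 and 275 CPM, and its HFD and Control mice overlapped. Its differences were -0.14 ± 0.24 (FDR = 0.776) and 0.63 ± 0.24 (FDR = 0.0731).

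The large scaffold subunits of the base had the opposite sign to their neighbours in HFD+Mino against HFD. Psmd1 had 311, 351 and 357 CPM in Control, 352, 321 and 352 CPM in HFD, and 174, 306 and 307 CPM in HFD+Mino. Every HFD+Mino mouse was below every HFD mouse, but the difference of -0.38 ± 0.24 (FDR = 0.250) did not pass the test. Psmd2, the other scaffold, had 372, 355 and 408 CPM, then 341, 360.4 and 374 CPM, then 247, 219 and 352 CPM, with a difference of -0.39 ± 0.22 (FDR = 0.200) in HFD+Mino against HFD. Psmd4, a ubiquitin receptor of the same base, had 305, 246 and 192 CPM in Control, 168, 187 and 175 CPM in HFD, and 477, 395 and 248 CPM in HFD+Mino. Its differences were -0.49 ± 0.27 (FDR = 0.329) and 1.08 ± 0.27 (FDR = 0.0174), and it was the only base non-ATPase with an FDR under 0.05. Psmd1 shares 553 exonic nucleotides with Gm21972 on the same strand and Htr2b on the other.

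Among the 8 lid subunits, 4 had an FDR under 0.05 in HFD+Mino against HFD and 0 were called, with a median of 0.66. Psmd11, a lid subunit that contacts both the core and the base, had 149, 141 and 126 CPM in Control, 92.2, 102 and 100.6 CPM in HFD, and 173, 153 and 151 CPM in HFD+Mino. The 3 groups did not overlap, and HFD was lowest by -0.49 ± 0.18 (FDR = 0.157) against Control and by 0.69 ± 0.18 (FDR = 0.0213) against HFD+Mino. Psmd3 had the opposite order, with 112, 111 and 141 CPM in Control, 137, 146 and 141 CPM in HFD, and 103, 58.5 and 132 CPM in HFD+Mino. Its HFD mice were above every HFD+Mino mouse but overlapped the Control mice, and the differences were 0.22 ± 0.27 (FDR = 0.683) and -0.53 ± 0.28 (FDR = 0.170).

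The alternative activators split by type. Psme1 and Psme2, whose products form the mixed activator ring that immune cells raise with interferon, lie near each other on chromosome 14 (chr14:55578494-55581527, plus strand, and chr14:55587440-55591101, minus strand). Psme1 had 107, 136 and 99.1 CPM in Control, 84.6, 87.6 and 80.3 CPM in HFD, and 298, 269 and 145 CPM in HFD+Mino. The HFD mice were below all others and every HFD+Mino mouse was above every Control mouse. Psme1 rose by 1.5 ± 0.27 (FDR = 0.00785) in HFD+Mino against HFD and differed by -0.44 ± 0.27 (FDR = 0.386) in HFD against Control.

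Psme2 had 50, 54.3 and 36.5 CPM in Control, 37.3, 40.5 and 34.8 CPM in HFD, and 138, 146 and 61.1 CPM in HFD+Mino. Its HFD+Mino mice were likewise above all 6 others, while HFD and Control overlapped, and Psme2 rose by 1.61 ± 0.32 (FDR = 0.00919) after a difference of -0.32 ± 0.31 (FDR = 0.589). A near copy covers 82.5% of the longest Psme2 transcript, so its count is uncertain. Psme3, whose product forms a nuclear activator ring on its own, had 209.9, 184 and 188 CPM, then 152, 175 and 196 CPM, then 139, 98.5 and 186 CPM, with a difference of -0.30 ± 0.24 (FDR = 0.372) in HFD+Mino against HFD. In CPM, Psme3 was therefore 196%, 136% and 189.6% of Psme1 in the Control mice, 180.1%, 200.3% and 244% in the HFD mice, and 46.8%, 36.7% and 128% in the HFD+Mino mice, where the third group lay below both others. Psme4 had 15.97, 12.7 and 13.7 CPM, then 9.08, 9.31 and 9.68 CPM, then 15.95, 25.2 and 12.3 CPM, with differences of -0.59 ± 0.29 (FDR = 0.273) and 0.93 ± 0.29 (FDR = 0.0366). The inhibitor Psmf1 differed by 0.26 in HFD+Mino against HFD (FDR = 0.307).

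Of the 7 assembly chaperones 0 were called in any comparison. The 4 core chaperones had a median of -0.14 in HFD against Control and 1.15 in HFD+Mino against HFD, and all 4 had an FDR under 0.05 in the latter with 0 called. Psmg1, which pairs with Psmg2 to seed the alpha ring, had 42.5, 47.1 and 31.1 CPM in Control, 31.1, 34.1 and 27.2 CPM in HFD, and 66.9, 77.8 and 42.2 CPM in HFD+Mino. Its differences were -0.39 ± 0.27 (FDR = 0.440) and 1.02 ± 0.27 (FDR = 0.0203). Psmg4, the partner of Psmg3, had 14.7, 15.2 and 7.30 CPM, then 11.8, 14.1 and 11.4 CPM, then 43.6, 34.4 and 13.0 CPM, and its differences were 0.01 ± 0.41 (FDR = 0.995) and 1.28 ± 0.42 (FDR = 0.0428). HFD+Mino replicate 3 lay inside the HFD range for Psmg4.

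Of the cap chaperones, Psmd10 had an FDR under 0.05 in HFD+Mino against HFD and Psmd5 did not. Psmd10, also known as gankyrin, had 81.1, 73.8 and 51.2 CPM in Control, 43.0, 50.9 and 49.3 CPM in HFD, and 125, 164 and 67.3 CPM in HFD+Mino, with differences of -0.52 ± 0.31 (FDR = 0.364) and 1.31 ± 0.31 (FDR = 0.0150). Psmd5 had 139, 155 and 139 CPM, then 127, 144 and 143 CPM, then 153, 171 and 141 CPM, and differed by -0.06 ± 0.19 (FDR = 0.887) and 0.16 ± 0.19 (FDR = 0.534). The chaperone outside the symbol pattern that completes the core, Pomp, had 286, 218 and 131 CPM, then 149, 169 and 161 CPM, then 547, 544 and 218 CPM, a difference of 1.45 (FDR = 0.0178) in HFD+Mino against HFD.

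Core, cap and chaperones were compared by their summed levels. The 15 constitutive core genes summed to 4192, 3792 and 2484 CPM in Control, 2597, 2614 and 2504 CPM in HFD, and 8120, 8447 and 3764 CPM in HFD+Mino. The 17 cap genes summed to 4864, 4269 and 3613 CPM, then 3219, 3534.5 and 3553 CPM, then 5612, 5389 and 4152 CPM, and the 7 chaperones to 423, 413 and 326 CPM, then 323, 357 and 339 CPM, then 667, 665 and 404 CPM. All 3 HFD+Mino mice were above all HFD mice in each sum. The ratio of core to cap was 0.862, 0.888 and 0.687 in Control, 0.807, 0.739 and 0.705 in HFD, and 1.45, 1.57 and 0.907 in HFD+Mino. It overlapped between HFD and Control, and every HFD+Mino mouse was above every other mouse. The median differences in HFD+Mino against HFD were 1.36 for the core, 1.02 for the chaperones and 0.64 for the cap. In HFD against Control the medians of core, chaperones and cap were -0.44, -0.17 and -0.36, so there the chaperones differed least. Without HFD+Mino replicate 3 the medians in HFD+Mino against HFD were 1.62, 1.23 and 0.79. They were 1.16, 0.91 and 0.59 without HFD+Mino replicate 1, 1.29, 0.83 and 0.65 without replicate 2, and 0.54, 0.33 and 0.33 without both, where the chaperones and the cap were level. Without Control replicate 1 the medians in HFD against Control were -0.27, -0.05 and -0.26.

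**Figure D4:**
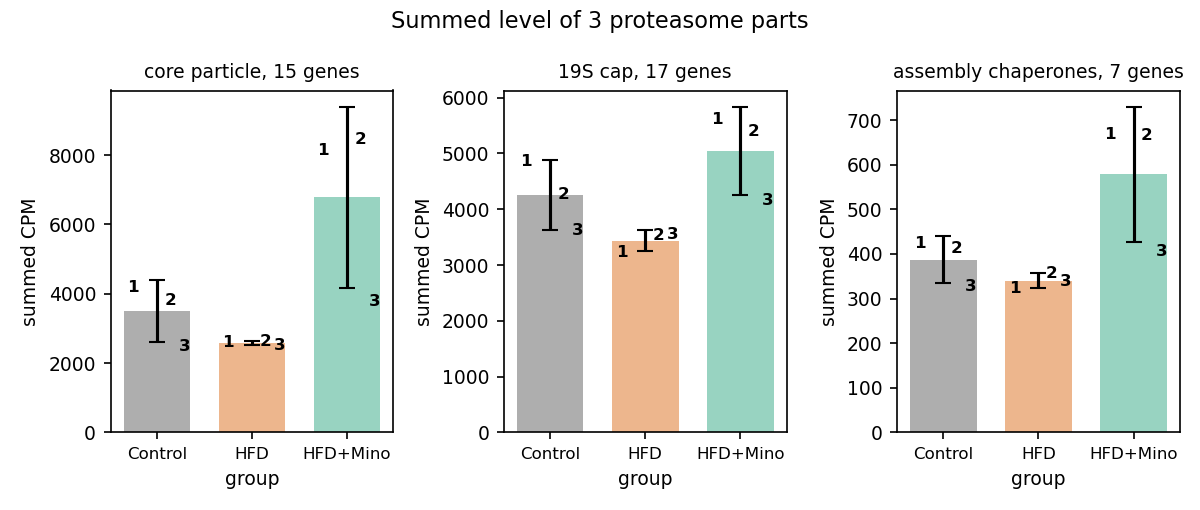
Summed CPM of the core, cap and chaperone genes by group, with bars for means of 3 mice, error bars for SDs and digits at the value of each replicate. The HFD mice sit between 2504 and 2614 CPM for the core, and HFD+Mino replicates 1 and 2 reach 8120 and 8447 CPM.

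Exon length moved with these results. Over the 15625 tested genes with an exon length, the Spearman correlation of length with the log2 difference in HFD+Mino against HFD was -0.489, and over the 47 members it was -0.461. Both are descriptions across genes, which share their libraries. Split by length into 4 groups of like size, genes in the shortest group (up to 2717 nucleotides) stood at 0.74, 0.55 and 0.15 on the log2 scale relative to Control in HFD+Mino replicates 1, 2 and 3, at -0.24, -0.16 and -0.24 in the HFD mice, and at 0.18, 0.08 and -0.23 in the Control mice, an order of samples much like that of the members. The members are short, with a median of 2808 nucleotides of exon against 4334 for all genes, and 22 of them lie in the shortest group and 4 in the longest. The core genes have a median of 2370 nucleotides, the cap genes 2820 and the chaperones 1738.

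In HFD+Mino against HFD the members were above the genes of their length group in all 4 groups, and in HFD against Control they were below them. In HFD+Mino against HFD, the median of the members was 1.23 against 0.77 for all genes in the shortest group, 1.11 against 0.01 in the next, 0.69 against -0.34 in the next and 0.45 against -0.56 in the longest. In HFD against Control the corresponding medians were -0.43 against -0.25, -0.35 against -0.09, -0.19 against 0.11 and -0.11 against 0.36. With the trend on length removed from every sample, the 4 calls were lost and Psmd11 alone was called, 1 of 47 against 1.9% of all genes. The median of the members was then -0.20, 0.64 and 0.45 in HFD against Control, HFD+Mino against HFD and HFD+Mino against Control, and the core at 0.96 stayed above the cap at 0.38 in HFD+Mino against HFD, while the chaperones came to 0.35.

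**Figure D5:**
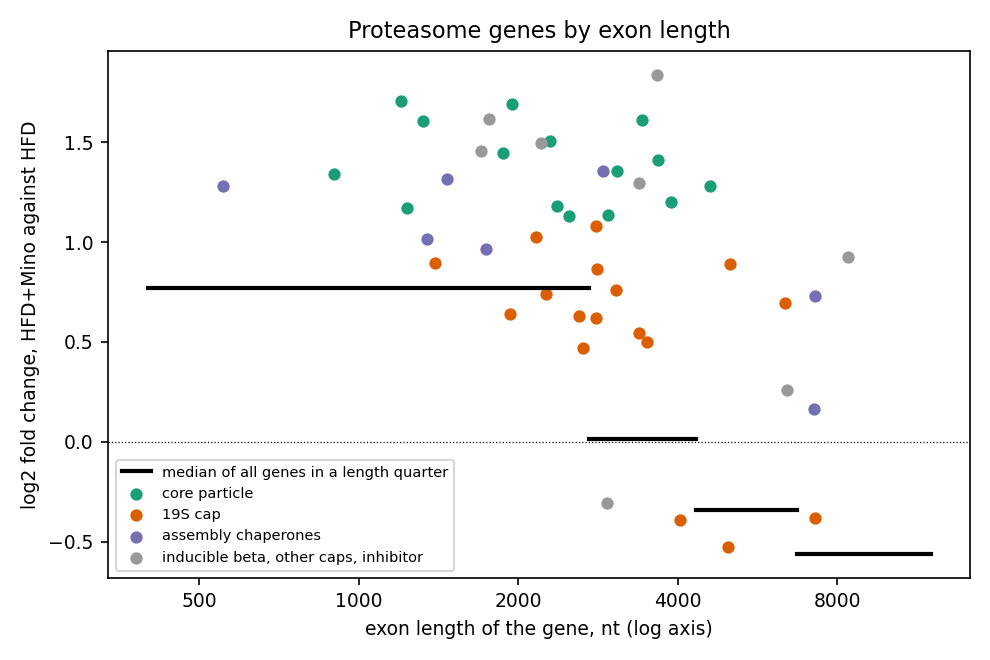
Exon length in nucleotides (log axis) against the log2 difference in HFD+Mino against HFD for the 47 members, coloured by role, with black lines at the median of all genes tested in each of 4 length groups. The lines step down from 0.77 to -0.56 with length, and most members lie above the line of their own length.

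Genes that work with the proteasome, and genes of other housekeeping particles, were examined from lists. Of the 82 tested over all these lists, 7 (8.54%) were called in at least 1 comparison or in the 3-way test, against 4.59% of all genes tested. The 82 include 12 genes of MHC class I peptide supply, 8 of the CCT chaperonin and 22 of the COP9 signalosome and eIF3. None of the calls lay in those lists, so the share among the remaining genes was higher. Akirin2, which carries proteasomes into the nucleus, had 49.1, 56.2 and 39.8 CPM in Control, 7.78, 7.86 and 6.5 CPM in HFD, and 39.98, 44.5 and 57.4 CPM in HFD+Mino. The HFD mice were far below all others and the other groups overlapped. Akirin2 fell by 2.71 on the log2 scale in HFD against Control (SE 0.24, FDR = 0.000252) and rose by 2.68 ± 0.24 (FDR = 0.000385) in HFD+Mino against HFD, and both calls held in all 26 alternative settings. It was the only called gene of the 4 assembly factors and parts outside the symbol pattern, where Pomp and Sem1 reached an FDR under 0.05 in HFD+Mino against HFD and the receptor Adrm1 differed by 0.38.

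The transcription factor Nfe2l1, the main inducer of proteasome genes, had the reverse order. Its level was 87.7, 109 and 186 CPM in Control, 316, 314 and 345 CPM in HFD, and 71.6, 60.0 and 112 CPM in HFD+Mino. The HFD mice were above all others, and Control replicate 3, the Control mouse with the lowest subunit levels, had the highest Control value. Nfe2l1 fell by 2.00 (SE 0.32, FDR = 0.00471) in HFD+Mino against HFD and was higher by 1.35 (FDR = 0.0308) in HFD against Control, and it was called highest in HFD in the 3-way test. The call against HFD was lost on leaving out any of 6 of the 9 libraries. Mafg, a small partner protein of such factors, had 28.8, 31.1 and 36.9 CPM, then 10.3, 11.7 and 11.6 CPM, then 22.6, 17.2 and 34.1 CPM, and fell by 1.53 (FDR = 0.00954) in HFD against Control. The median over the 11 genes of this list was -0.17 in HFD against Control and -0.29 in HFD+Mino against HFD.

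Of 14 proteasome-bound deubiquitinases, ligases and adaptors, with medians of -0.23 in HFD against Control and -0.09 in HFD+Mino against HFD, Zfand5 and Ecpas were called. Zfand5, which stimulates the proteasome during atrophy, had 161, 135 and 141 CPM in Control, 42.5, 60.5 and 54.4 CPM in HFD, and 86.9, 154 and 158 CPM in HFD+Mino, and it fell by 1.47 (FDR = 0.00889) and rose by 1.34 (FDR = 0.00918). Ecpas, a scaffold that binds the proteasome under stress, was high in HFD with 79.2, 68.5 and 69.0 CPM against 26.9, 27.3 and 43.2 CPM in Control and 24.3, 23.1 and 23.5 CPM in HFD+Mino, and it fell by 1.61 (FDR = 0.00330) in HFD+Mino against HFD. Of the 7 genes of the p97 unfoldase and its cofactors, which extract proteins for degradation and had medians of -0.27 and 0.61, the cofactor Faf1 had 82.0, 90.8 and 89.2 CPM, then 17.5, 22.1 and 22.3 CPM, then 61.4, 73.7 and 74.1 CPM, and it fell by 2.08 (FDR = 0.000353) and rose by 1.76 (FDR = 0.000994). Of the 5 tested ubiquitin and activating enzyme genes, with medians of 0.31 and 0.93, Uba6 fell by 1.59 (FDR = 0.00776) in HFD+Mino against HFD. Leaving out 1 library ended the call against HFD in 3 of 9 cases for Faf1, 4 for Ecpas, 5 for Uba6 and 6 for Zfand5, and the call against Control in 0 of 9 for Faf1, 6 for Zfand5 and 7 for Mafg.

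No gene was called in the list of MHC class I peptide supply, to which the immunoproteasome delivers peptides, nor in either of the other housekeeping particles examined. The 12 genes of peptide supply had a median of -0.06 in HFD against Control and 0.11 in HFD+Mino against HFD, with B2m lowest at -0.81 and Erap1 highest at 0.76 in the former. The 8 subunits of the CCT chaperonin had medians of -0.07 and 0.20, from -0.25 for Cct8 to 0.23 for Cct2. The 22 genes of the COP9 signalosome and eIF3, complexes built on the same fold as the proteasome lid, had medians of -0.12 and 0.38, from -0.80 for Cops6 to 0.69 for Eif3a. At an FDR under 0.05 in HFD+Mino against HFD, 7 of them were higher and 1 lower. Of the 17344 genes tested, 2525 were higher and 2236 lower at that FDR. Beside these, the median in HFD+Mino against HFD was 1.08 for the proteasome members, 1.53 for the 4 parts outside the symbol pattern, 1.32 for the ependymal markers and 1.20 for the markers of PVN neurons.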

How the data were processed

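Bulk RNA sequencing counts of PVN punches from 9 mice were used, 3 per group, with groups and replicate numbers taken from the labels. The members, the gene lists and the tests were chosen with earlier results of these data known. Members called in any test, the catalytic subunits, the members farthest up and down between HFD and Control in each class and, of the other lists, called genes or those farthest up and down are named with values.

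The libraries were made with a low-input polyA-primed kit (SMARTer v4) and Nextera XT. The authors aligned reads to mm10 with HISAT2, counted them per gene by featureCounts, and deposited these raw counts without normalization. Tool versions, strand setting and the treatment of reads with several positions are not given in the sources used here, so counts of members with near copies (5 with over 20% of a transcript at 98% identity or more, by BLAST 2.17.0) or overlapping exons (13) are uncertain. The 5 with near copies were Psma3, Psma4, Psma5, Psmb5 and Psme2.

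The tests were run in R 4.3.3 with edgeR 4.0.16 (filterByExpr, TMM, quasi-likelihood fit of the 3 groups in 9 samples, Benjamini-Hochberg FDR over 17344 genes). CPM were scaled by TMM, and each SD is over 3 mice. Exon length came from GENCODE M21 and positions and promoters from RefSeq, both on GRCm38. Reads carry no molecular identifiers, so precision was taken from the spread between mice. Pairs of replicates of a group differed by 22.0 to 337 in chi-square over its degrees of freedom, above counting noise. Python 3.11.15 with pandas 2.3.3 made the tables. Scripts were tested on simulated data.

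Same-numbered Control and HFD+Mino samples deviated together (r = 0.221, 0.291 and 0.432), which was treated as a pairing in some alternatives. It was inferred from these same counts, and no label names a shared litter, batch or day. By the numbers in the sample titles, which the block in all 9 samples used, the correlations were -0.285, -0.144 and -0.0638 for Control and HFD. They were -0.235, -0.263 and -0.00685 for HFD and HFD+Mino. The column names of the HFD counts carry other numbers, by which HFD replicate 1 shares its number with replicate 3 of the other groups. The correlation of HFD replicate 1 was 0.176 with Control replicate 3 and -0.0581 with HFD+Mino replicate 3. Alternatives were DESeq2 1.42.0, a likelihood ratio test, other filters and scalings, replicate blocks, removal of trends on GC content or exon length, a looser FDR, models of 6 samples and leaving out each replicate. The block combined with the length trend, and the fit without HFD+Mino replicates 1 and 2, were added after seeing the data.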

Additional observations from a re-analysis of the deposited data

How the results depend on the processing

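No called value changed sign under any alternative. The count of members lower in HFD in the 3-way test, 0 in the reported fit, was 13 with DESeq2, 13 with edgeR's likelihood ratio test, 11 with no filter on low counts, 1 with the trend on GC content removed and 13 at an FDR under 0.05. It was 1 with the replicate block in all 9 samples, 7 with the block in Control and HFD+Mino alone, 9 with that block and the trend on the GC-richest 100 nucleotides removed, and 4 with that block and the length trend removed, an alternative chosen after seeing the data. Leaving out 1 replicate gave 0 to 20, the highest without HFD+Mino replicate 3.

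The count of members higher in HFD+Mino than in HFD, 4 in the reported fit, was 30 with DESeq2, 24 with the likelihood ratio test, 19 with no filter, 13 with the GC trend removed, 7 with the trend on the GC-richest stretch removed, 1 with the length trend removed, 33 at an FDR under 0.05 and 1 in a model of 6 samples. With the replicate block it was 10 in all 9 samples, 34 in Control and HFD+Mino alone, 33 with the GC-richest trend removed and 18 with the length trend removed. Leaving out 1 replicate gave 0 to 31. The median of 1.08 was 0.64 with the length trend removed and 0.57 with the block as well, and 0.91 to 1.30 leaving out 1 replicate. Without HFD+Mino replicates 1 and 2 together, chosen after seeing the data, the count was 0 and the median 0.45.

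In HFD against Control, 1 member was lower with the block in Control and HFD+Mino, 2 with the GC-richest trend also removed and 1 with the length trend also removed (Psmd11), against 0, and leaving out 1 replicate gave 0 throughout with a median from -0.53 to -0.26. In HFD+Mino against Control, 1 member (Psme2) was higher with DESeq2, 8 with the block and 9 with the block and the GC-richest trend removed, against 0, and leaving out 1 replicate gave 0 to 15. The median of 0.70 was 0.41 with the block and the length trend removed, 0.080 without HFD+Mino replicates 1 and 2, and 0.47 to 0.94 leaving out 1 replicate. The cause of these differences was not tested, except that the block leaves fewer degrees of freedom for the spread and that models of 6, 7 or 8 samples hold fewer samples. Depth was 17728590 counts or more per sample, and its part was not tested.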
